A study of Mus musculus with 6 samples.

Results

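Complement genes were examined in E18.5 fetal and adult basal mammary cells of C57Bl6J mice, for 9 genes: C1s, C1s2, C4b, C2, C3, Cfb, Serping1, Cd55 and Cd59a. They were found on the array through the RefSeq accession of each probe, which gave 12 probes for the 9 genes among 27235 probes with a matched gene and 20660 genes in all. C1s is C1s1 in the RefSeq table. The fetal cells were sorted from female embryos at embryonic day 18.5 after a short digestion, by the phenotype CD31-CD45-Ter119-EpCAM++CD49f+. The adult cells came from glands of females of 8 to 12 weeks, digested overnight, and had the phenotype CD31-CD45-Ter119-BP-1-EpCAM+CD49f+. No transgene or treatment is named for either population, and the number of animals behind a sample is not given in the sources used here. Each population had 3 biological replicates with 1 one-color Agilent array each, and between 76.4% and 83.3% of all probes were detected, which here means flagged by the scanner software as well above background. The adult sort removed BP-1+ cells and the fetal sort did not, and the digestion time also differed, so that neither can be told apart from the developmental stage.

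Complement is a cascade of plasma and cell-surface proteins that tags particles for uptake and punctures membranes. The classical pathway starts when C1q binds its target and the proteases C1r and C1s become active, after which C1s cleaves C4 and C2 into a C3 convertase. The alternative pathway builds its convertase from C3 and factor B, and both pathways lead to the cleavage of C3. Inhibitors in fluid and on membranes hold the cascade in check. The liver makes most plasma complement, and many epithelial and stromal cells also transcribe its genes.

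Signal of 8 of the 9 genes was higher on every adult basal array than on any fetal array. Only Cd55, which dissociates convertases on the cell surface, was higher on every fetal array. By the brightest probe of each gene, the differences (fetal minus adult basal, log2 of normalized signal) ran from -6.84 for C1s2 to 1.09 for Cd55, with a median of -3.51. The median over all 15734 genes tested was -0.04. The 9 genes were chosen with results of this same contrast known, so their values are a description and no p value is given for them. All 12 probes entered the fit, for which the mean of at least 1 population had to reach the low-signal boundary (5.95). The fetal means of 3 of them, those of Cfb (4.80) and of the dimmer probes of Serping1 (4.31) and C1s2 (2.93), were below it, so that they entered through the adult basal arrays alone. By the rule applied to all probes (limma, with p at or below 0.05 after Holm adjustment and a change of 1 or more on the log2 scale), 5 of the 9 genes were called, all of them higher in adult basal cells. They were C1s, C1s2, C4b, Cfb and Serping1. Without the low-signal filter the call of Cfb was lost and 4 were called. Among all genes tested by their brightest probe, 5.21% were called in that direction and 6.03% in the other. Groups that do not overlap were common on these arrays, as 35% of all genes tested were higher on every adult basal array and 33.4% on every fetal array. Counted over all 20448 probes tested, 5.18% were called higher in adult basal and 5.92% in fetal cells, and 35% and 34.1% did not overlap in those directions. Because RNA was taken from bulk sorted cells, a smaller number of expressing cells and less RNA per cell cannot be told apart in any of these differences.

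**Figure D1:**
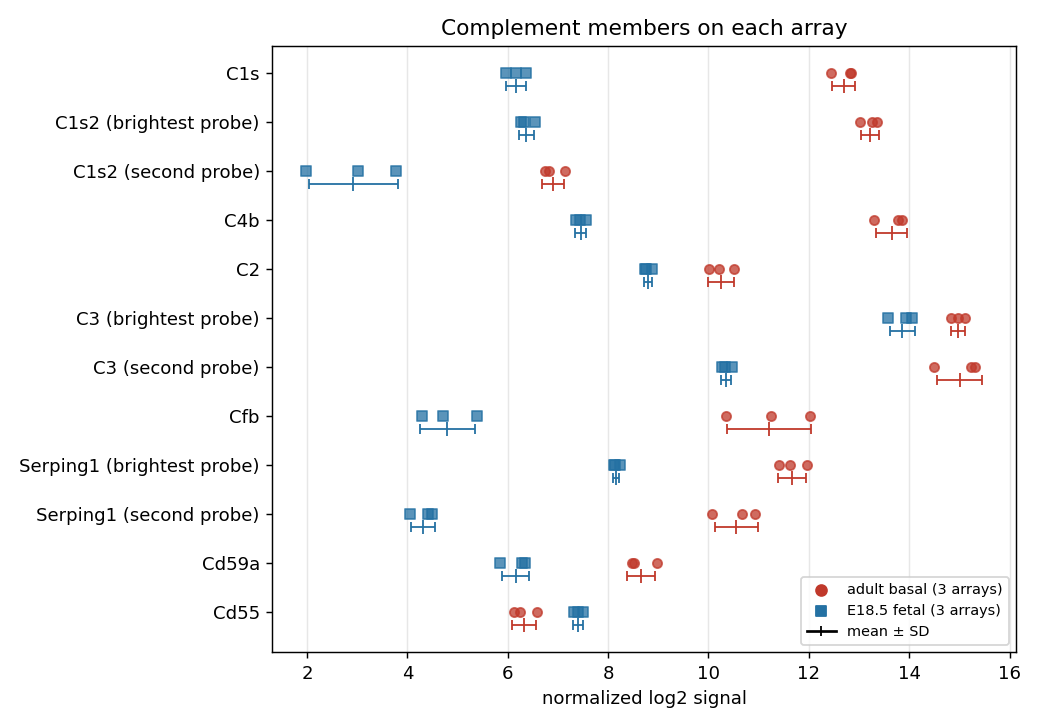
Normalized log2 signal (x axis) of the 12 probes of the 9 complement genes (y axis) on the 3 adult basal arrays (circles) and the 3 E18.5 fetal arrays (squares), with mean ± SD of each population drawn below the points. The circles lie to the right of the squares for every probe but that of Cd55, and positions of different probes on the axis are not comparable as transcript levels.

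Both C1s genes were among those called. C1s, which encodes the protease that cleaves C4 and C2, was at 12.81, 12.43 and 12.84 on the 3 adult basal arrays and at 6.16, 6.36 and 5.97 on the 3 fetal arrays (normalized log2 signal). Its probe was detected on all 6 arrays, and the replicates of each population lay close together. The mean was 12.70 ± 0.23 (SD, n = 3) in adult basal against 6.16 ± 0.19 (SD, n = 3) in fetal cells. The log2 difference was -6.53 (standard error 0.16), or 92.7-fold, and -5.48 with normexp, another background correction. C1s2, a second C1s gene that the mouse carries beside C1s, was at 13.26, 13.01 and 13.36 in adult basal cells and at 6.26, 6.53 and 6.33 in fetal cells by its brightest probe. Its log2 difference was -6.84 (standard error 0.13), or 114-fold. It was -6.01 with normexp and -5.41 with the probes of the gene averaged. Its other probe gave a smaller difference of -3.98 (standard error 0.41), from adult basal values of 6.74, 6.83 and 7.15 and fetal values of 3.77, 3.02 and 1.99. That probe was detected on only 1 of the 3 fetal arrays, so that its fetal signal is near the floor of the measurement. The sequences of the 2 genes are related, and whether a probe for one also binds the transcript of the other was not tested.

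The regions around the annotated starts of C1s and C1s2 are shown here because the genes lie close together on chromosome 6 and moved together. Each is 300 bases of RefSeq sequence (build GRCm38.p6, minus strand, 250 bases before the start and 50 from it on), in lower case with matches to the motifs searched in capitals. The C1s1 window is chr6:124542310-124542609 and the C1s2 window is chr6:124636036-124636335.
C1s1: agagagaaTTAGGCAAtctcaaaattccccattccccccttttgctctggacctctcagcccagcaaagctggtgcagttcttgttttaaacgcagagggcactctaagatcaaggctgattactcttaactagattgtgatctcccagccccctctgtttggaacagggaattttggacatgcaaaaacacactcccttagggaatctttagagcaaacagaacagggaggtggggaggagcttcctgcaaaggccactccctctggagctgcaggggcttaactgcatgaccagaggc
C1s2: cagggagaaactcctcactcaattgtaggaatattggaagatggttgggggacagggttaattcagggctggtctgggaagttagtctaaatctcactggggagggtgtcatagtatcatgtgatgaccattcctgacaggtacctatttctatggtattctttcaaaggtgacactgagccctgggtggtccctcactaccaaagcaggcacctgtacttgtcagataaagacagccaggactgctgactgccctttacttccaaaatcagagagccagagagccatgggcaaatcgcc
The motifs were the STAT motif TTCNNNGAA, the C/EBP motif TTGCNNAA, the AP-1 motif TGANTCA, the interferon-stimulated response element and the kappaB consensus, each on both strands, and TATAAA on the sense strand. The C1s1 window held 1 match, to the C/EBP motif on the minus strand at position -242 from the start, and the other C1s1 window in the table, a little further downstream, held none. The C1s2 window held none of these letters. Of all 32851 windows of this length in the table, 10.8% held the C/EBP motif, 8.30% the STAT motif, 7.81% the AP-1 motif, 3.44% the interferon response motif, 8.46% the kappaB consensus and 8.32% TATAAA. A match of letters is a description and shows no binding.

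Both substrates of C1s were lower in fetal cells, by different amounts. C4b, which encodes complement C4, was at 13.86, 13.31 and 13.78 on the adult basal arrays and at 7.44, 7.56 and 7.36 on the fetal arrays. The log2 difference was -6.20 (standard error 0.16), or 73.4-fold, and no array was below background. C4b has a near-identical copy, C4a, for which no probe was matched, and signal of the 2 genes may not be separable. C2, which encodes the protease that joins C4 in the classical convertase, was at 10.52, 10.01 and 10.22 in adult basal cells and at 8.76, 8.88 and 8.73 in fetal cells. The populations did not overlap, but the difference was smaller, -1.46 on the log2 scale (standard error 0.14), or 2.75-fold.

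Cfb encodes factor B, the protease of the alternative pathway convertase. It was at 12.02, 10.34 and 11.24 on the adult basal arrays and at 5.39, 4.70 and 4.30 on the fetal arrays. Its adult basal replicates were the most spread of all 12 probes (11.20 ± 0.84, SD, n = 3), and the probe was detected on 2 of the 3 fetal arrays. This gave a log2 difference of -6.40 (standard error 0.44), or 84.6-fold. Cfb no longer passed the limits of the call when adult basal replicate 1, adult basal replicate 3 or any 1 fetal array was left out, which left 4 of the 9 genes called in each case. It was also lost without the low-signal filter and with a variance trend and robust estimation. Its log2 difference was -4.61 with normexp and -5.74 with an offset of 16 added before log2. With 1 array left out, adult basal replicate 2 included, the difference was between -6.83 and -5.99.

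C3, the component on which all pathways converge, gave 2 answers. The brightest probe, A_55_P2038525, was at 14.98, 14.83 and 15.11 in adult basal cells and at 14.06, 13.58 and 13.94 in fetal cells, a log2 difference of -1.11 (standard error 0.15), or 2.16-fold. Probe A_51_P110301, of the same accession, was at 15.23, 14.49 and 15.30 in adult basal cells but at 10.27, 10.33 and 10.46 in fetal cells, a log2 difference of -4.65 (standard error 0.22), or 25.1-fold. Both probes were detected on all 6 arrays, and on both the populations did not overlap. The first did not pass the limits of the call and the second did, as did the average of both (-2.88). What part of the transcript each probe binds was not tested, because the probe sequences were not used here. The labels and the study's methods name different versions of the labeling kit, one of them for whole transcripts, so how far the position of a probe bears on the differences between probes of C3, C1s2 and Serping1 was not tested. The window around the start of C3 (build GRCm38.p6, minus strand, chr17:57228087-57228386) is shown because it held 2 of the motif matches.
C3: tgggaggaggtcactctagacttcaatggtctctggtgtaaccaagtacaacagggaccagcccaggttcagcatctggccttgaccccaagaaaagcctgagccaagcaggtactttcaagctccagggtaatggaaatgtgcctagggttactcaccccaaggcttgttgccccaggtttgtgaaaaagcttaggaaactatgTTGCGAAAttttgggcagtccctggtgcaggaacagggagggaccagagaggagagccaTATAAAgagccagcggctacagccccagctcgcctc
The capitals mark the C/EBP motif on the plus strand at position -45 and TATAAA at position 15, both counted from the annotated start as position 1. No window was matched for C4b, C2, Cfb or Serping1. The window of Cd59a held 1 match, to the interferon response motif, and that of Cd55 held none.

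Among regulators, the fluid-phase inhibitor was lower in fetal cells and the membrane inhibitors went separate ways. Serping1 encodes C1 inhibitor, which inactivates C1r and C1s. By its brightest probe it was at 11.97, 11.40 and 11.63 in adult basal cells and at 8.11, 8.23 and 8.14 in fetal cells, a log2 difference of -3.51 (standard error 0.15), or 11.4-fold. Its other probe was at 10.92, 10.08 and 10.66 against 4.05, 4.49 and 4.41, a log2 difference of -6.24 (standard error 0.23), or 75.7-fold. With normexp this was -4.25, and with the offset of 16 it was -5.40. Averaging both probes gave -4.87. Both probes were detected on all 6 arrays, and their log2 differences lay further apart than the standard errors of both. Cd59a, which encodes an inhibitor of the membrane attack complex, was at 8.98, 8.51 and 8.48 against 6.29, 5.84 and 6.34, a log2 difference of -2.50 (standard error 0.19), or 5.65-fold. Cd55, which encodes decay-accelerating factor, was at 6.25, 6.12 and 6.59 in adult basal cells and at 7.31, 7.50 and 7.40 in fetal cells. The log2 difference was 1.09 (standard error 0.14), or 2.13-fold higher in fetal cells. C2, C3 by its brightest probe, Cd59a and Cd55 were the 4 genes that did not pass the limits of the call. Cd59a passed them under 5 other settings with Holm adjustment, and its log2 difference fell in size to -1.83 with normexp.

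One adult basal array was low for most of these probes. Adult basal replicate 2 was the lowest of the 3 adult basal arrays for 10 of the 12 probes, against 39.9% of all tested probes. It was also the only adult basal array on its slide, as the 6 arrays lay on 2 slides with both populations on each. Within the first slide (2 adult basal arrays and 1 fetal array) the log2 differences were -6.67 for C1s, -7.05 for C1s2, -6.39 for C4b and -6.24 for Cfb. Within the other slide (1 adult basal array and 2 fetal arrays) they were -6.27, -6.58, -5.85 and -5.84 for the same genes and probes. For Cd55 they were 0.90 and 1.33.

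Other genes of the cascade, listed from their known roles and apart from the 9, were then read from the same fit. This list was also drawn up with earlier results of these data known. Some of its genes are not reported here and were left out of its counts. Its counts and p values are therefore descriptions. Of 47 listed genes, 45 had a probe and 31 reached the low-signal boundary in at least 1 population. Holm-adjusted limma calls were made for 2 of the 31: C1ra was higher in adult basal cells and Susd4 was higher in fetal cells. Over all genes tested, 5.21% were called higher in adult basal and 6.03% in fetal cells. The median log2 difference of the 31 genes was -0.33. At an unadjusted p under 0.05, 17 were higher in adult basal and 2 in fetal cells. That threshold is passed by much of the array, with 32% of all genes tested higher in adult basal and 31.8% in fetal cells, and the counts at this threshold given for single groups of genes stand against the same shares. With Benjamini-Hochberg in place of Holm adjustment, 8 genes were called higher in adult basal cells and 1 in fetal cells, against 13.9% and 15.8% of all genes tested. Of the genes higher in adult basal cells, C1ra, C1qc, Fcna, Colec11, Csmd1 and Vtn had fetal means below the low-signal boundary. They entered the fit through the adult basal arrays alone.

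**Figure D2:**
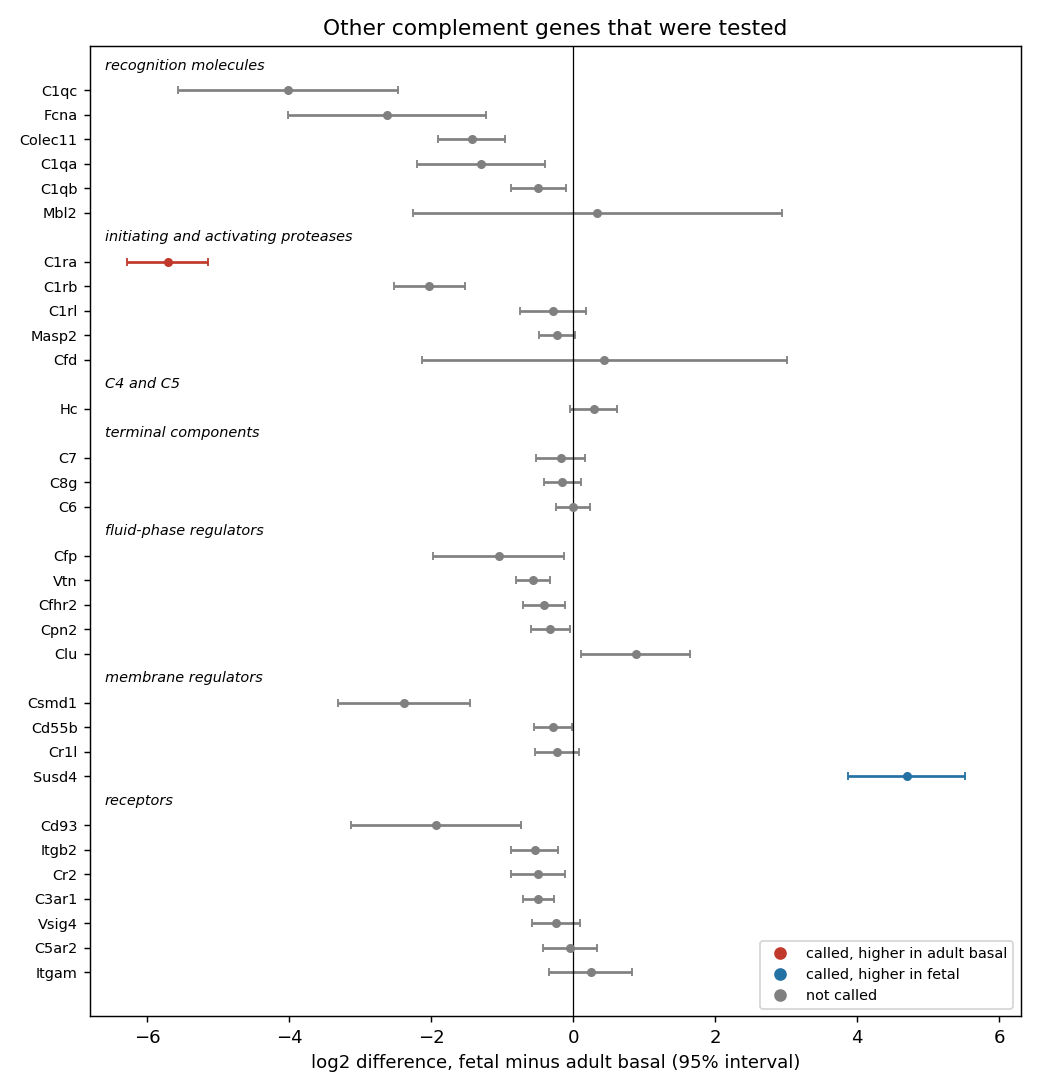
Log2 difference (fetal minus adult basal, x axis) with its 95% interval for the 31 other complement genes tested (y axis), grouped by role and by the brightest probe of each gene. The 2 called genes are colored, C1ra (-5.71) to the left and Susd4 (4.70) to the right.

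C1ra encodes C1r, the partner protease that activates C1s. It was at 11.75, 11.07 and 12.03 in adult basal cells and at 5.91, 5.73 and 6.07 in fetal cells. The log2 difference was -5.71 (standard error 0.24, limma, Holm-adjusted p = 0.00088), and the other C1ra probe had a difference of -5.26 (standard error 0.30, Holm-adjusted p = 0.0073). The fetal means of both probes (5.90 and 5.52) were below the low-signal boundary (5.95). Both thus entered the fit through the adult basal arrays alone. Without the low-signal filter the call by the brighter probe was kept (limma, Holm-adjusted p = 0.013). The call held in all 17 other fits with Holm adjustment, with Holm-adjusted limma p values from 5.6e-05 to 0.024. The log2 difference of C1ra was -4.75 with normexp and -5.38 with an offset of 16 added before log2. C1rb, the second C1r gene, was at 8.94, 8.39 and 9.24 against 6.87, 6.89 and 6.73. Its log2 difference of -2.03 (95% interval -2.52 to -1.53) did not pass (limma, Holm-adjusted p = 0.38), although it did without adult basal replicate 2 (adjusted p = 0.016; between 0.016 and 1 over 17 fits). C1rl, a C1r-like protease, was at 10.55 ± 0.29 (SD, n = 3) in adult basal and 10.26 ± 0.29 (SD, n = 3) in fetal cells, with a 95% interval of the difference from -0.75 to 0.18.

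Susd4 encodes a membrane protein with sushi domains that inhibits complement. It was at 5.26, 6.45 and 4.997 in adult basal cells and at 10.15, 10.40 and 10.24 in fetal cells, and was detected on all 6 arrays. The log2 difference was 4.70 (standard error 0.35, limma, Holm-adjusted p = 0.043), or 25.9-fold. Its adult basal mean (5.57) was below the low-signal boundary (5.95), so that it entered the fit through the fetal arrays alone. Without the low-signal filter the call was lost (limma, Holm-adjusted p = 0.37), as it was with the filter on probes well above background (0.068). The call was kept in 9 of 17 other fits, with Holm-adjusted limma p values from 8.7e-05 to 0.55. Leaving out adult basal replicate 1 or 3 ended it (adjusted p of 0.44 and 0.15), as did leaving out fetal replicate 1, 2 or 3 (0.55, 0.52 and 0.44). The log2 difference in all 17 was between 3.47 and 5.14.

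The remaining regulators and receptors differed less or varied more between arrays. Csmd1, a large membrane regulator, had a log2 difference of -2.38 (95% interval -3.31 to -1.45), which did not pass. Its probe was detected on 2 of the 3 fetal arrays, with a fetal mean of 4.12, so that its fetal signal is near the floor. Of the other membrane regulators tested, Cr1l, the rodent regulator also known as Crry, was at 12.31 ± 0.20 (SD, n = 3) in adult basal and 12.08 ± 0.12 (SD, n = 3) in fetal cells, with a 95% interval of the difference from -0.55 to 0.08. Cd55b, the gene beside Cd55, had a log2 difference of -0.29 (95% interval -0.55 to -0.02). Clu, which encodes the terminal pathway inhibitor clusterin, was at 14.85, 14.94 and 13.85 against 15.55, 15.76 and 14.97 in fetal cells, a difference of 0.88 (95% interval 0.11 to 1.65). Vtn, Cpn2, Cfhr2 and Cfp had log2 differences of -0.57, -0.33, -0.41 and -1.05, none of which passed. Cfhr2 is uncertain, since its probes had mean log2 signals of 14.92 and 5.42 in adult basal cells, and only the brighter was tested.

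The terminal components gave little signal, or little difference by their brightest probes. C6, C7 and C8g were tested and had log2 differences of -0.00, -0.17 and -0.15, with 95% intervals within 0.52 of 0, although the second C8g probe was higher on every fetal array (0.95, limma, unadjusted p = 3.8e-05, Holm-adjusted p = 0.61). C8a, C8b and C9 lay below the low-signal boundary. Hc, which encodes C5, had a difference of 0.29 (95% interval -0.04 to 0.62). By the brightest probe of each gene, 0 of these 4 had an unadjusted limma p under 0.05. Among receptors, 0 of 7 were called by limma with Holm adjustment, and 4 had an unadjusted p under 0.05, all higher in adult basal cells. These were C3ar1, the receptor for C3a (-0.49, 95% interval -0.71 to -0.28), Cr2 (-0.50), Itgb2 (-0.55) and Cd93 (-1.93). Cr2 depended on the probe, as its other tested probe differed by -0.06 (95% interval -0.29 to 0.16). C5ar2, Itgam and Vsig4 had log2 differences of -0.04, 0.24 and -0.24. Cd93 was also called with Benjamini-Hochberg adjustment. Mbl1, Colec10, Masp1, C8b, C4bp and C5ar1 were not detected on any array by their main probe, and Cfi, Cpn1, Itgax, Fcnb, Cd46 and Cd59b also lay below the low-signal boundary. Masp2, of the lectin pathway, had 3 probes, whose log2 differences were -0.23 (95% interval -0.49 to 0.02), -1.23 and 0.00, and none was called.

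The recognition molecules of the classical pathway varied between adult basal arrays. C1q is made of chains A, B and C and comes largely from macrophages. C1qc was at 8.41, 7.43 and 10.32 on the adult basal arrays and at 4.47, 4.51 and 5.13 on the fetal arrays, so that the populations did not overlap but adult basal replicates differed widely. C1qa was at 8.30, 8.14 and 9.68 against 7.42, 7.23 and 7.57, and C1qb at 9.94, 10.48 and 10.52 against 9.83, 9.82 and 9.81. Fcna, which encodes ficolin A, was at 5.59, 5.29 and 7.39 against 3.86, 3.92 and 2.61. All 4, and Cfp, which encodes properdin, were highest on adult basal replicate 3. Of the 6 recognition genes tested, 0 were called by limma with Holm adjustment, 5 had an unadjusted p under 0.05 (all higher in adult basal cells), and 4 were called with Benjamini-Hochberg adjustment (C1qa, C1qc, Fcna and Colec11). The sixth, Mbl2, was at 10.91, 6.20 and 10.26 in adult basal cells and at 9.50, 9.36 and 9.54 in fetal cells.

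Both sorts removed CD45+ cells. The leukocyte markers Aif1 (7.94, 7.10 and 9.41), Tyrobp (7.82, 7.16 and 9.64) and Lyz2 (6.26, 5.61 and 7.95) had the same order over the adult basal arrays as C1qa and C1qc, with fetal values of at most 6.01. These 3 are named because of that order, which 4 of the 10 leukocyte markers with a probe had (the other was Fcer1g), against 15.9% of all genes tested. Of the 10, 6 were highest on adult basal replicate 3, 3 (Cd14, Cd3e and Cd79a) on replicate 1 and 1 (Ptprc) on replicate 2, and over all genes tested 28.5% were highest on replicate 3. Of the 11 leukocyte markers listed, 10 had a probe, all above background on at least 1 array, and 0 were called by limma with Holm adjustment (5 had an unadjusted p under 0.05, all higher in adult basal cells). The second probe of Adgre1 was at 6.63, 6.12 and 8.71 in adult basal cells and was detected on no fetal array. The log2 difference of this second probe was -4.66 (standard error 0.80), which rests on undetected fetal signal, and it was not called. The brightest Adgre1 probe differed far less. It was at 8.44, 8.72 and 8.86 in adult basal cells and at 8.30, 8.33 and 8.13 in fetal cells. Its log2 difference was -0.42 (standard error 0.14), and it was not called either. Summed linear signal of the list was 19951, 20928 and 24571 on the adult basal arrays and 20908, 16641 and 18805 on the fetal arrays, with Csf1r the brightest gene at 46.9% of the sum. The sum is uncertain, since it holds only the brightest of 3 Csf1r probes. Their adult basal means were 13.24, 11.14 and 9.48, with log2 differences of -0.06, -0.25 and -0.66. Ptprc, which encodes CD45, was at 6.86, 7.29 and 7.05 in adult basal cells and at 6.29, 7.25 and 6.72 in fetal cells. Their part in the values of the C1q chains was not tested.

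**Figure D3:**
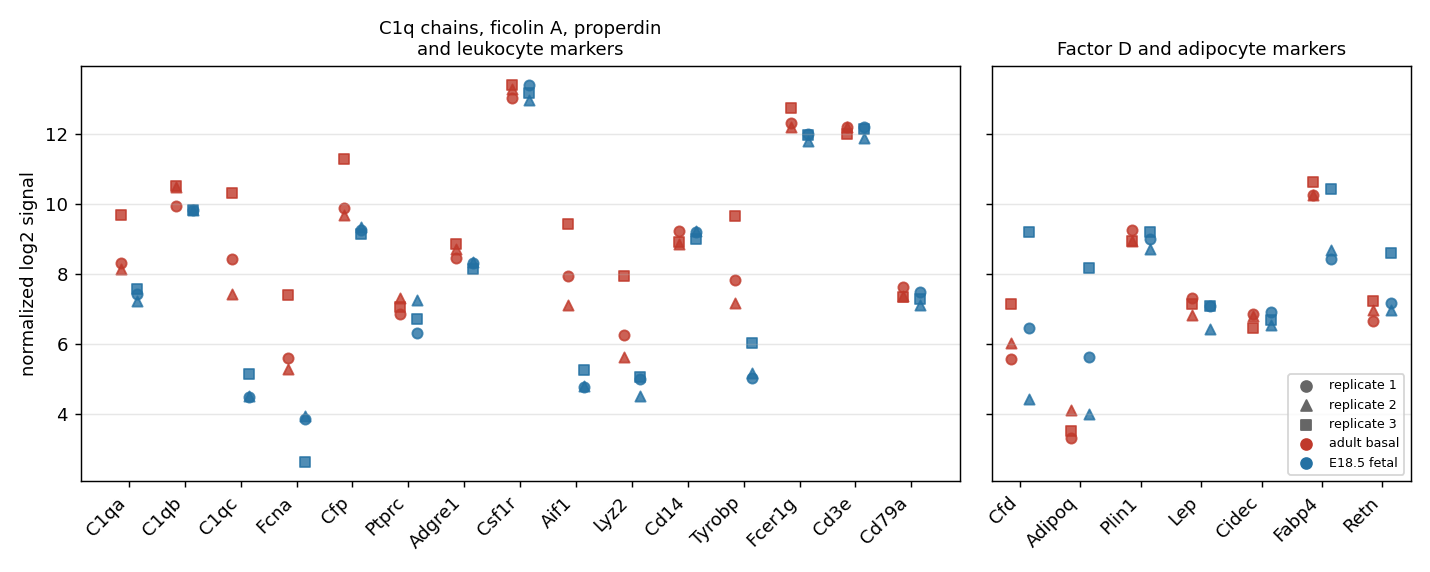
Normalized log2 signal (y axis) of complement and marker genes (x axis), with adult basal arrays in red and E18.5 fetal arrays in blue, and circles, triangles and squares for replicates 1, 2 and 3. On the left, adult basal replicate 3 is the highest adult point for the 5 complement genes (10.32 for C1qc) and for 6 of the 10 leukocyte markers, and on the right, fetal replicate 3 is the highest fetal point for Cfd (9.19) and 5 of the 6 adipocyte markers.

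Factor D stood apart on 1 fetal array. Cfd, which encodes the protease that activates factor B and is also known as the adipocyte product adipsin, was at 6.44, 4.42 and 9.19 on the fetal arrays. Its adult basal values were 5.57, 6.03 and 7.13. The adipocyte markers Adipoq (5.62, 3.99 and 8.17), Fabp4 (8.43, 8.67 and 10.43) and Retn (7.17, 6.96 and 8.60) were also highest on fetal replicate 3 among fetal arrays, as were 5 of the 6 markers listed, by the brightest probe of each, and 40.3% of all genes tested. The exception was Cidec, whose other tested probe (5.06, 2.35 and 7.23) was also highest there. Summed signal of the 6 adipocyte markers was 1305, 1144 and 2874 in fetal cells against 2217, 2075 and 2470 in adult basal cells, with Fabp4 the brightest gene. Their part in the Cfd values was not tested. A difference of Cfd between the populations was not detectable beyond this spread (95% interval of the log2 difference -2.13 to 3.01).

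Marker genes were read in the same way for the cells that the sorts could hold. The basal and myoepithelial markers marked the adult cells as labelled: 6 of 8 were called higher in adult basal cells, among them Acta2 (log2 difference -4.07), Krt5 (-3.90) and Oxtr (-3.96), whereas Krt14 and Trp63 were not called by their brightest or only probe. Trp63 depended on the probe, as its other probe was called higher in adult basal cells (log2 difference -3.06, limma, Holm-adjusted p = 0.00019). The 8 luminal markers went both ways. Elf5 (log2 difference 7.55), Cd24a (2.15) and Kit were called higher in fetal cells, and Krt8 and Krt18, at 0.44 and 0.58, were not called. Esr1, Krt19 and Prlr were higher on every adult basal array (-3.58, -1.22 and -0.35) and were not called, although the other tested Prlr probe was called higher in fetal cells (1.85, limma, Holm-adjusted p = 0.026). The Esr1 probe was detected on only 1 of the 3 fetal arrays, so that its fetal signal (mean 3.35) is near the floor. Fibroblasts also transcribe classical pathway genes. Of 10 fibroblast markers, all detected on at least 1 array, Dcn (log2 difference -3.78, limma, Holm-adjusted p = 0.0023) and Pi16 (-2.98, Holm-adjusted p = 0.016) were called higher in adult basal cells and the other 8 were not called. The fetal mean of Pi16 (5.75) was below the low-signal boundary (5.95), so that it entered the fit through the adult basal arrays alone. At an unadjusted p under 0.05, 8 of the 10 were higher in adult basal and 1, Fbln1, in fetal cells. Col1a1 was at 10.16 ± 0.51 (SD, n = 3) in adult basal and 10.15 ± 0.15 (SD, n = 3) in fetal cells. Summed signal of the list was 19974, 23835 and 30511 on the adult basal arrays and 9195, 9251 and 11246 on the fetal arrays, a ratio of 2.50, with Dcn the brightest gene at 33.6% of the sum. The pericyte gene Pdgfrb was also called higher in adult basal cells (-4.34), and the other 4 pericyte markers tested were not. Pdgfrb (fetal mean 4.97) and the called basal marker Myh11 (5.72) also entered the fit through the adult basal arrays alone. Elf5 (adult basal mean 5.10) entered it through the fetal arrays alone. Of 6 endothelial markers tested, 0 were called by limma with Holm adjustment and 4 had an unadjusted p under 0.05, all higher in adult basal cells. Among these 4, Cdh5 (fetal mean 4.83) and Emcn (4.19) entered the fit through the adult basal arrays alone. Of the hepatocyte markers, Ttr was not detected on any array, and Alb and Apoa1 lay below the low-signal boundary. Apob, Fga and Serpina1c were tested, with log2 differences of -0.23, -0.56 and -0.31, and 0 were called by limma with Holm adjustment (2, Fga and Serpina1c, had an unadjusted p under 0.05). Summed signal of the list was 1.43 times as high in adult basal as in fetal cells, with Fga the brightest gene at 88.5% of the sum. Fga is uncertain, since its other probe had means of 5.06 in adult basal and 4.77 in fetal cells and was not tested. The fetal sort took EpCAM++ cells and the adult sort EpCAM+ cells without BP-1+ cells. The study places the stromal cells of the fetal gland in the EpCAM- fraction. The part of fibroblasts or other stromal cells in the complement differences was not tested.

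The genes are placed in 2 chromosomal blocks, which allowed neighbours to be compared. C4b, Cfb and C2 lie together in the class III region of the major histocompatibility complex, and C1s and C1s2 lie with C1ra, C1rb and C1rl. Of the 3 nearest protein-coding genes with a probe on each side of each block, 12 in all, 10 were tested and 1 was called, Zbtb12, which was higher in fetal cells (log2 difference 1.53, limma, Holm-adjusted p = 0.035). That call was lost when any 1 array was left out (adjusted p from 0.10 to 0.55; from 0.0042 to 0.55 over 17 fits), and its log2 difference stayed between 1.41 and 1.59. Tnxb, which lies beside C4b, had a log2 difference of -0.77 (standard error 0.10). Ehmt2, on the far side of Zbtb12 from C2, had one of 0.06 (95% interval -0.19 to 0.31).

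The genes between C4b and Cfb were Cyp21a1, Stk19, Dxo, Skiv2l and Nelfe, which were added after the neighbours outside had been seen. Their log2 differences were -0.22, -0.08, 0.54, -0.10 and 0.95, and none was called. Next to the C1s block, Clstn3 differed by -0.29 (95% interval -0.59 to 0.02) and Lpcat3 by -0.05 (95% interval -0.35 to 0.25). Within that block, C1rl differed little whereas C1ra, C1s and C1s2 had log2 differences of -5.71, -6.53 and -6.84. No neighbour tested in either block had a log2 difference below -1. Zbtb12, Phb2 and Nelfe, at 1.53, 1.15 and 0.95, had the largest differences among the neighbours tested, and all were higher in fetal cells.

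**Figure D4:**
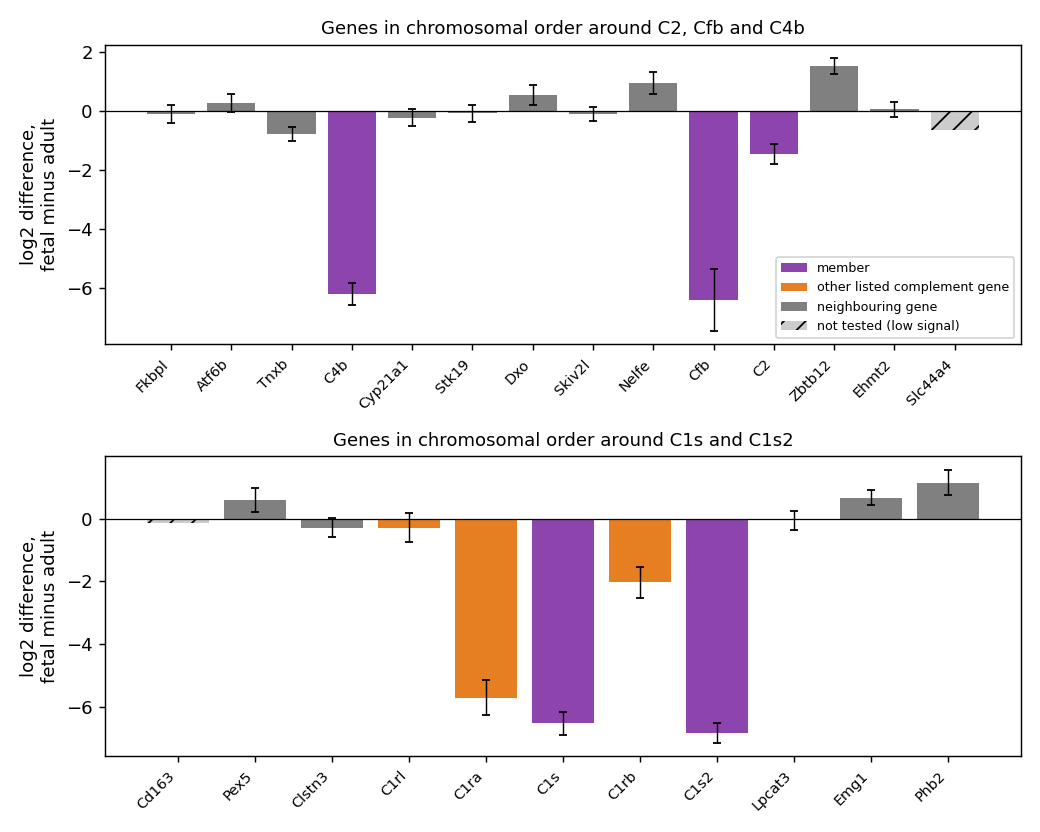
Log2 difference (fetal minus adult basal, y axis) of genes in their order along the chromosome (x axis, order only), with 95% intervals for tested genes. Complement genes (purple for the 9 genes, orange for other listed genes) reach -6.20 at C4b, -6.40 at Cfb and -6.84 at C1s2, whereas the tested neighbours in grey lie between -0.77 and 1.53 and hatched bars were not tested because of low signal.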

How the data were processed

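RNA from 3 E18.5 fetal and 3 adult basal samples was hybridized to Agilent SurePrint G3 Mouse GE arrays. The authors deposited spot intensities from Feature Extraction 11.0.1.1, background-subtracted within each array and not normalized between arrays, and a log2 table that the authors quantile normalized in GeneSpring. The medians of the 6 columns of that table were all 7.11, and each column followed its own array most closely.

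Here, control spots and 104 to 326 outlier spots per array were dropped, log2 processed intensities were averaged over spots of a probe, and the 6 arrays were quantile normalized. No spot was saturated. Probes were named by unversioned accession through a RefSeq table of GRCm38.p6 (27235 of 55681 probes). The array design names mm9, so coordinates are given only for RefSeq promoter windows. Gene names from the scanner files were not used for this matching. Probes in the lowest of 3 k-means clusters (boundary 5.95 on the log2 scale) in both populations were removed, which left 20448, and lmFit and eBayes of limma 3.58.1 (R 4.3.3) were fitted with Holm adjustment. The fit was tested on simulated data.

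The 9 genes and the lists were chosen with earlier results of these data known. Some genes of the other complement list are not reported here and were left out of its counts. The main probe of a gene was the one with the highest mean over the 6 arrays (among tested probes for other genes). Named were all 9 genes and their probes, the other complement genes with a probe, the neighbours, markers where their list is given, and the 5 genes most correlated with C3. Alternatives were 75th percentile scaling, the deposited log2 values, normexp (offset 50) on median intensities, omission of the low-signal step, a requirement that probes be well above background, Benjamini-Hochberg adjustment, a variance trend with robust estimation, an offset of 16, each array left out, replicate and slide blocks, and averaging all probes of a gene. The dimmest probe of a gene was added after seeing the data. The number of arrays limits the precision, and an exact permutation test of a single gene with 3 against 3 cannot give a two-sided p below 0.10. Plots were drawn with matplotlib 3.10.9.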

Additional observations from a re-analysis of the deposited data

How the results depend on the processing

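The direction of all 12 probes of the 9 complement genes was kept in all 156 combinations of probe and alternative setting that had a value. Of these values, 13 moved by more than the spread between replicates. Cd55 had no value with normexp, and the dimmer C1s2 probe had none with normexp or the offset of 16. With normexp the log2 difference was smaller in size for C1s (-5.48), C1s2 (-6.01), C4b (-5.68), Cfb (-4.61), Cd59a (-1.83) and the dimmer Serping1 probe (-4.25). With an offset of 16 it was -5.74 for Cfb and -5.40 for that Serping1 probe. Averaging the probes of a gene gave -5.41 for C1s2, -2.88 for C3 and -4.87 for Serping1. Cfb lost its call without the low-signal filter and with a variance trend and robust estimation, and Cd59a gained one with 75th percentile scaling, normexp, that trend, the offset and the averaged probes, as C2 did with the trend and C3 with the averaged probes. The number of the 9 genes called higher in adult basal cells was 5 and rose to 8 with Benjamini-Hochberg adjustment, where 1 (Cd55) was called higher in fetal cells against 0 with Holm adjustment. When 1 array was left out it was 4 to 5, and the number higher in fetal cells was 0 in each such fit. The dimmest tested probe of each gene, chosen after seeing the data, also gave 5 genes, with C3 in place of C1s2. Of the other complement genes, 1 (C1ra) was called higher in adult basal cells. This became 8 with Benjamini-Hochberg adjustment, and 1 to 2 with 1 array left out, the other being C1rb without adult basal replicate 2. The 1 gene called higher in fetal cells (Susd4) became 0 without the low-signal filter, with the filter on probes well above background and with a variance trend and robust estimation, and was 0 to 1 with 1 array left out. The 1 neighbour called became 0 without the low-signal filter, with the filter on probes well above background, with the slide block and in every fit with 1 array left out, and 2 with Benjamini-Hochberg adjustment. Fits without 1 array kept the normalization of all 6. The causes of these changes were not tested.

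Over all tested probes, 1060 were called higher in adult basal and 1210 in fetal cells. Without the low-signal filter these were 563 and 619, and with Benjamini-Hochberg adjustment 2866 and 3267. With a variance trend and robust estimation 1591 were called higher in adult basal cells, and with a slide block 801 in fetal cells. With 1 array left out the counts were 432 to 954 and 494 to 1060.

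The populations share replicate numbers 1 to 3. Deviations of same-numbered samples had correlations of -0.03, 0.09 and 0.05 across probes. Samples with different numbers had correlations from -0.13 to 0.12. With 3 arrays in each population, these values cannot show whether same-numbered samples were prepared together. With the replicate block, 608 probes were called higher in adult basal and 694 in fetal cells, 1 other complement gene was called higher in adult basal cells and 0 neighbours were called.

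With 3 arrays in each population, the differences of -1.11 (C3, brightest probe) and 1.09 (Cd55) were not called with Holm adjustment, and signal below the boundary of 5.95 gave no test.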

Other observations

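Over the 6 arrays, the genes whose main probe followed the brightest C3 probe most closely, among 15733 other genes tested, were Tgfbi (Pearson r = 0.9996), Foxo3 (0.997), I730030J21Rik (0.997), Gm14308 (0.996) and Btg1c (0.995). Tgfbi encodes a secreted matrix protein induced by TGF-beta, and Foxo3 a forkhead transcription factor. Their log2 differences were -1.45, -0.69, -0.97, -0.41 and -0.30. These are descriptions over 6 arrays in 2 populations, picked as the highest of many correlations, and carry no p value.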
